A study of Mus musculus with 16 samples.

Results

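The comparison described here is that of Tas1r3-/- with Tas1r3+/+ mice when both were fed a Western diet (WD), in RNA of the terminal ileum. Of 23299 genes in the deposited table, 18998 were compared. The WD group labels cover 8 samples, 4 of each genotype with 2 males and 2 females, out of 16 samples in the series. They entered as 7 libraries, because both columns labelled as Tas1r3-/- females on the WD were merged into their mean and counted once. Transcripts with a value of more than 6 significant digits in the WD columns were left out before transcript values were summed to genes. These were 100 of 59258 transcripts, with 7 to 9 digits where the kept ones had at most 6, and 41 genes went with them entirely. The 41 genes are 22 alpha-defensins and Tas1r3, Tnf, Pparg, Fabp1, Fabp4, Il1a, Il1b, Il6, Cpt1a, Hif1a, Hk2, Scd1, Ocln, Cldn7, Reg3g, Lyz1, Lyz2, Mptx1 and Muc3a. A further 28 genes lost only some of their transcripts and are called kept in part below. Since Tas1r3 is among the genes left out, its level gives no check of the genotype labels here.

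Both groups were C57BL/6 littermates aged 5 to 6 weeks when they were assigned, and both received 60% high-fat pellets with a 30% sucrose solution for 10 weeks. Tas1r3-/- mice carry the Tas1r3tm1Csz allele, a germline knockout that affects every tissue and not the gut alone, backcrossed to C57BL/6. Mice on a normal diet (ND) with plain water, 4 Tas1r3+/+ and 2 male Tas1r3-/- libraries, were used for the same genotype comparison on that diet. The labels number the samples of a group without naming animals, so that p-values measure only the spread between these samples.

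TAS1R3 is the shared subunit of the sweet and the umami taste receptors. Besides taste buds it is found in chemosensory and hormone-secreting cells of the gut, where sweet taste signalling is known to bear on sugar sensing and hormone release. The ileal epithelium is renewed from crypts, in which stem cells divide and Paneth cells secrete antimicrobial peptides such as alpha-defensins, while enterocytes on the villi take up fat, sugar, amino acids and bile acids.

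Each value below is a scaled RPKM, that is, the deposited RPKM (reads adjusted for transcript length and library depth) divided by a scaling factor of the library. The factors were 0.681 to 1.01 in the 4 Tas1r3+/+ and 0.770 to 0.877 in the 3 Tas1r3-/- libraries, and 1 read on a transcript of 1 kb equals a deposited RPKM of 0.0692 to 0.0995, which corresponds to a depth of 10045976 to 14460681 reads per library. Values are given in the order male 1, male 2, female 1 and female 2 of Tas1r3+/+ mice, and male 1, male 2 and female (the mean of both columns) of Tas1r3-/- mice. Fold changes are differences of log2(scaled RPKM + 0.5), Tas1r3-/- minus Tas1r3+/+, which understates the change of low genes. Genes of the X and Y chromosomes matched the labelled sex in all 7 libraries. Among the Tas1r3-/- columns, 2 times female 2 minus female 1 came out with at most 6 digits for 99.9% of 51915 transcripts, against 67.2% to 73.2% when other columns were combined in that way. Exceptions among kept transcripts, with more digits or a result below 0, numbered 9. They include transcripts of Mptx2, Muc2, Il18 and Nfkbie, which are named below. Values of this combination lay near whole numbers of reads in 88.1% of cases, at a depth of 10702887 reads, much as in single libraries. The merged female may thus hold 2 libraries, of which female 1 has the greater weight. The ileal enterocyte markers were present in every library, with Fabp6, the ileal bile acid-binding protein, at 719 to 8972. Their level set 2 libraries apart. Tas1r3+/+ female 2 had a summed enterocyte level of 20041 against 4800 to 5932 in the other 3 libraries of its group, and Tas1r3-/- male 1 had 1553 against 4474 and 10487 in the others.

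No gene passed an adjusted p under 0.01 with a change of at least 2-fold (0%), by limma's moderated test with Benjamini-Hochberg adjustment over 18998 genes. At an adjusted p under 0.05, 1 gene passed, Nfkb1 (0.00526% of genes tested). An unadjusted p under 0.05 was reached by 442 genes (2.33%), of which 277 were higher in Tas1r3-/- mice (1.46%) and 165 lower (0.869%). With an unadjusted p under 0.01 and at least 2-fold there were 31 genes (0.163%), 18 higher (0.0947%) and 13 lower (0.0684%). The 2 groups did not overlap in 490 genes, of which 270 were higher in all Tas1r3-/- libraries (1.42%) and 220 lower (1.16%). Over all genes, 51.9% had a log2 fold change below 0, with a median of -0.01. When values were left unscaled, the median moved to -0.12, and the genes with an unadjusted p under 0.05 were 91 higher and 381 lower, so that the share of higher genes was 19.3% in place of 62.7%. Of 200 genes given a simulated log2 change of 1.5 between these groups, 107 passed an adjusted p under 0.05, and of 200 given a change of 1, 8 passed. Among genes left unchanged in the simulated data, 4.93% to 5.09% had an unadjusted p under 0.05 by limma. The 2.33% of genes found here lies below that share. In the simulated data each gene varied independently and with the same spread in all groups, whereas the libraries here shared deviations over many genes. The simulated counts and shares therefore need not hold for these data.

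**Figure D1:**
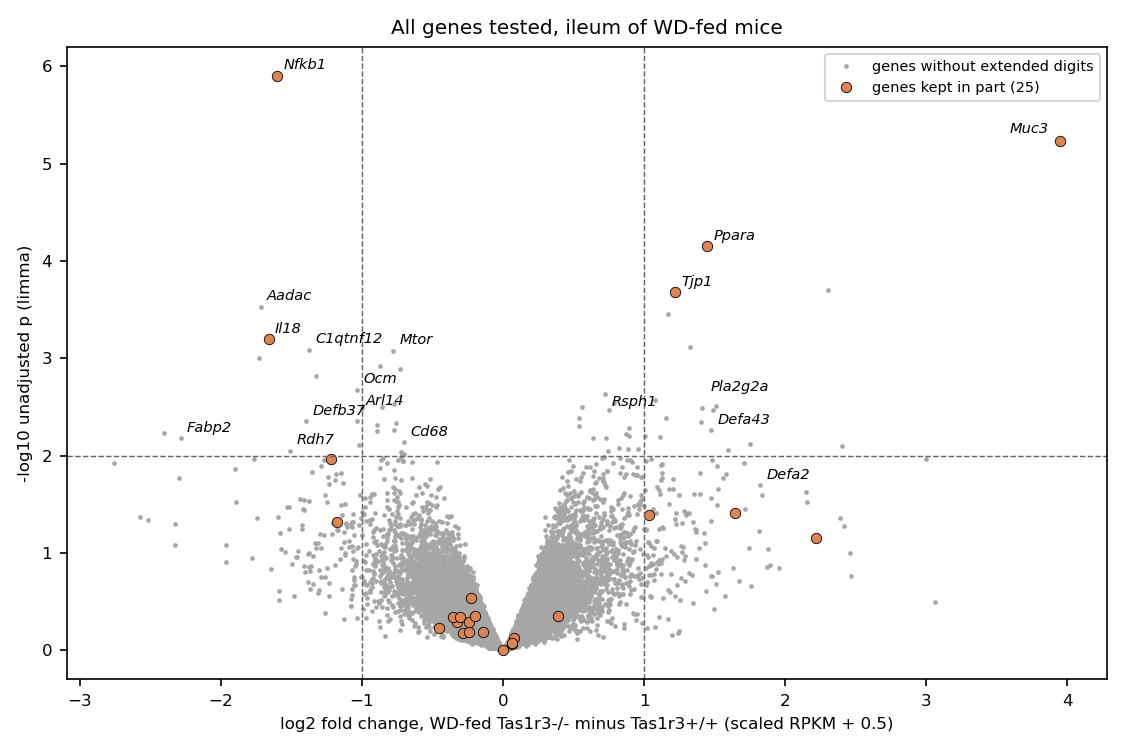
Log2 fold change (horizontal axis) and -log10 of limma's unadjusted p (vertical axis) of the 18998 genes tested, WD-fed Tas1r3-/- against Tas1r3+/+ mice. Dashed lines mark 2-fold and the 0.01 level of that p, grey points are genes without extended digits and orange points the 25 tested genes that were kept in part. Nfkb1 and Muc3 stand highest, and both are among the genes kept in part.

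The list with the highest median log2 fold change was the alpha-defensins, the antimicrobial peptides that Paneth cells store in granules. Of 28 family members in the table, 22 had extended digits and were left out, and the 6 kept were Defa2, Defa29, Defa30, Defa34, Defa42 and Defa43. All 6 were higher in WD-fed Tas1r3-/- mice, with a median log2 fold change of 1.44 and a range of 1.09 to 1.82, and in all 6 the groups did not overlap, compared with 1.42% of genes tested. An unadjusted p under 0.05 was reached by 6 of 6, compared with 1.46% of genes tested. The family lies in 1 cluster on chromosome 8, and its reads can be divided among near-identical copies, so single members are uncertain. The transcripts of Defa42 and Defa43 share 50-base runs over 100% and 96.1% of their lengths and cannot be told apart, and Defa2 shares 100% and Defa34 84% of such runs with other alpha-defensin transcripts. The closest to Defa2 is Defa33 (86.7%) and the closest to Defa34 is Defa5 (78.8%), both among the genes left out, so reads of these copies can hardly be told apart. Defa30 shares 52.4% and Defa29 35.7% of such runs with any other alpha-defensin transcript.

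To show how alike and unlike the kept copies are, the promoters of 3 of them are printed from RefSeq on GRCm38.p6, from 250 bases before to 50 bases after the start, with the letters TATAAA in capitals. They are those of Defa2 (chr8:21378267-21378566, plus strand), Defa30 (chr8:21134400-21134699, plus strand) and Defa43 (chr8:21594416-21594715, minus strand). Of the 6 kept genes, 4 had a promoter in the RefSeq table.
Defa2: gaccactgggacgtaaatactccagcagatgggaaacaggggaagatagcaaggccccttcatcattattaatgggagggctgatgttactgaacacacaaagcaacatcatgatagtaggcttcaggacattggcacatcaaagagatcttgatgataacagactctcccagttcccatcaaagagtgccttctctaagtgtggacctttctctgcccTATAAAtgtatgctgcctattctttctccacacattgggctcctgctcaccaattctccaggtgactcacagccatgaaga
Defa30: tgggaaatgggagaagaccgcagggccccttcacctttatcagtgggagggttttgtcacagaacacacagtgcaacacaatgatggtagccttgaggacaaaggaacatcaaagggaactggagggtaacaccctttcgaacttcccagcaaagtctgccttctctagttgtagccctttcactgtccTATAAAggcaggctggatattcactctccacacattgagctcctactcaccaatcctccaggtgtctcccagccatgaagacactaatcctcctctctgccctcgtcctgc
Defa43: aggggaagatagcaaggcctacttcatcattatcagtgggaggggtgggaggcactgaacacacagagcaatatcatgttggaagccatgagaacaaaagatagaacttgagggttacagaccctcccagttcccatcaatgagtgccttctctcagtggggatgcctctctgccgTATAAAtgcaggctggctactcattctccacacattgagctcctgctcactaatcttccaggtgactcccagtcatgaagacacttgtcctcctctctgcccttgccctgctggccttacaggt
TATAAA occurred once in each on the strand of the gene, 31, 61 and 74 bases before the annotated start of Defa2, Defa30 and Defa43, and it occurs on that strand in 8.32% of the 32851 promoters of the same length in that table. The promoter of Defa42 (chr8:21456468-21456767, minus strand) is identical to that of Defa43 over 100% of its bases. Base by base from the annotated starts and without gaps, Defa2 and Defa30 had 24.7% identical positions. Because TATAAA lies 31 and 61 bases before these starts, the 2 windows are not lined up. That value therefore does not measure how alike these promoters are. A match of letters is a description of the window and not a binding site.

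Defa2 was the most abundant kept member. Its scaled RPKM was 3171, 3622, 5827 and 5000 in Tas1r3+/+ and 21820, 9727 and 16321 in Tas1r3-/- mice, and the lowest Tas1r3-/- library exceeded the highest Tas1r3+/+ library. It differed by 1.82 on the log2 scale (SE 0.68, limma's unadjusted p = 0.0199). For Defa30, which was named when its values had been seen, scaled RPKM was 6456, 5394, 2294 and 4673 against 8784, 16058 and 10975 (log2 fold change 1.40, unadjusted p = 0.0246). Tas1r3+/+ female 1 was the lowest library for this member and for Defa29, Defa34 and Defa42.

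Defa43, the member with the smallest p, had 1689, 1005, 1269 and 2651 in Tas1r3+/+ and 4322, 3988 and 4607 in Tas1r3-/- mice. The fitted difference was 1.48 on the log2 scale (SE 0.44, limma's unadjusted p = 0.0055, adjusted p = 1). Defa34 ranged from 515 to 1175 and from 2072 to 2687, and its log2 fold change was 1.49. The least abundant kept member, Defa29, ranged from 489 to 1137 in Tas1r3+/+ and from 1541 to 2008 in Tas1r3-/- mice. Defa42 ranged from 1165 to 2498 and from 3189 to 3974. In each of these 4 genes the groups lay apart, and the Tas1r3-/- libraries spread less in ratio than the Tas1r3+/+ libraries. The summed level of the 6 genes was 11559 to 16657 in Tas1r3+/+ and 37857 to 43205 in Tas1r3-/- mice. On the ND, where the mice were others, all 6 were also higher in Tas1r3-/- mice, with a median log2 fold change of 1.35.

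Over all alternatives the median log2 fold change of the alpha-defensins tested lay between 1.16 and 1.55. The upper end came from the setting with all transcripts kept, where 28 members were tested in place of 6. The number with an unadjusted p under 0.05 was 4 without Tas1r3-/- male 1 or male 2, 5 without Tas1r3+/+ male 1 and 3 without Tas1r3+/+ female 1. In bulk tissue RNA, more cells of a type and more RNA per cell cannot be told apart.

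**Figure D2:**
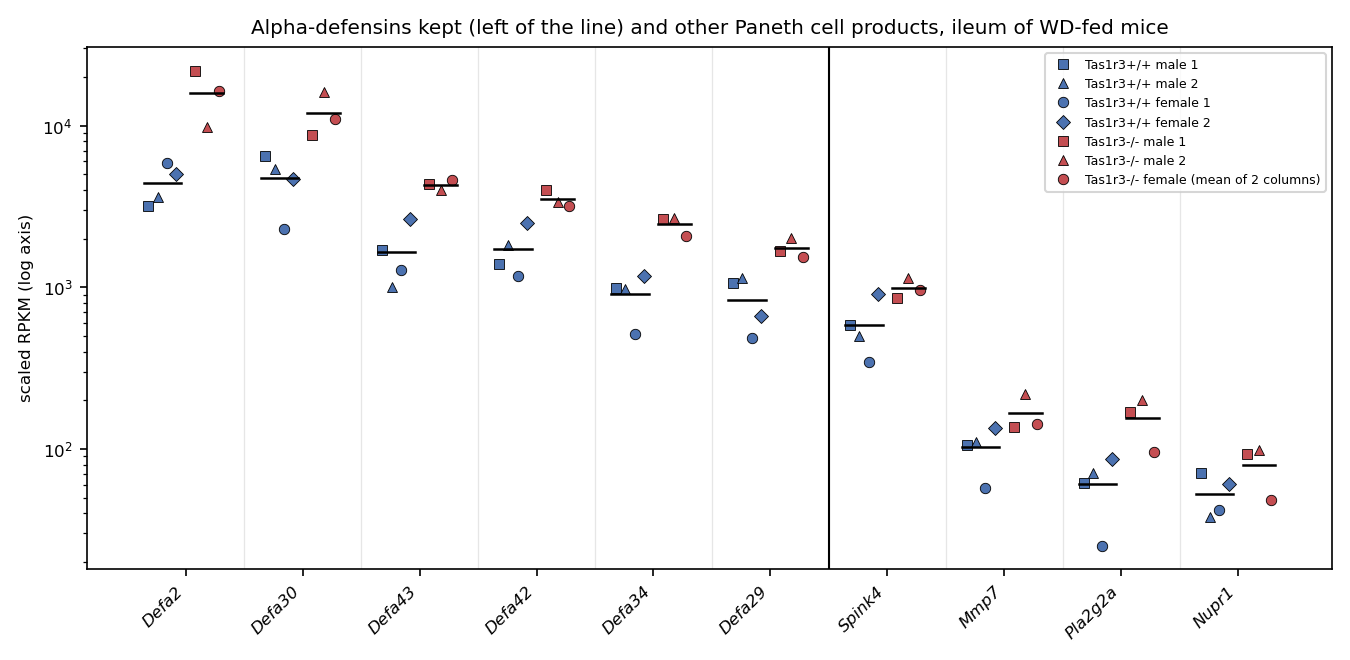
Scaled RPKM (log axis) of the 6 kept alpha-defensins and of 4 other Paneth cell products in each WD-fed library. Blue symbols are the 4 Tas1r3+/+ and red symbols the 3 Tas1r3-/- libraries, and bars are group means. The groups are apart for all 6 alpha-defensins and for Mmp7 and Pla2g2a, and they overlap for Spink4 and Nupr1.

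Other Paneth cell products lay in the same direction with smaller differences. All 9 tested were higher in Tas1r3-/- mice (median log2 fold change 0.74), 1 of them with an unadjusted p under 0.05 (1.46% of genes tested), and 2 had groups that did not overlap (1.42%). The gene with that p was Pla2g2a, which encodes a secreted phospholipase that kills bacteria and is annotated in GENCODE as a polymorphic pseudogene. It had 61.8, 70.7, 25.2 and 86.4 in Tas1r3+/+ and 169, 202 and 96.0 in Tas1r3-/- mice. The Tas1r3-/- female lay just above the highest Tas1r3+/+ library, and both males were far above it. Its log2 fold change was 1.41 (SE 0.39, unadjusted p = 0.00322), and its p stayed at or below 0.0199 with any 1 library left out. Mmp7, the protease that activates alpha-defensins in mice, had 106, 111, 57.1 and 135 against 138, 220 and 142, also without overlap (log2 fold change 0.74, unadjusted p = 0.116). Spink4 had 584, 501, 344 and 907 against 858, 1146 and 955, where Tas1r3+/+ female 2 overlapped the Tas1r3-/- range (unadjusted p = 0.0554). Nupr1 overlapped as well, at 38.0 to 70.9 against 48.0 to 98.2. With all 8 WD columns as labelled, 1 gene of the list had groups that did not overlap. With 2 times female 2 minus female 1 as a further library, that count was 0. Summed over the list, levels overlapped, at 1532 to 3480 in Tas1r3+/+ and 2830 to 5934 in Tas1r3-/- mice, with the Tas1r3-/- female lowest of its group.

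Genes of dividing crypt cells were higher in 25 of 26 cases, with a median log2 fold change of 0.38, and 3 of the 26 had an unadjusted p under 0.05 (1.46% of genes tested). Mcm3, a subunit of the replicative helicase, had 17.4, 14.9, 14.5 and 12.8 in Tas1r3+/+ and 27.5, 31.6 and 18.0 in Tas1r3-/- mice (log2 fold change 0.74, unadjusted p = 0.0144). Mcm7, of the same complex, had 9.84, 9.48, 10.2 and 9.11 against 13.7, 18.9 and 10.6. In both genes the groups did not overlap, and the Tas1r3-/- female lay nearest to the Tas1r3+/+ libraries. The third gene was Birc5, which is needed for chromosome segregation and ranged from 11.2 to 20.4 and from 19.4 to 33.2. Without Tas1r3-/- male 2, 15 of the 26 were higher and 11 lower, the median was 0.15 and the number with an unadjusted p under 0.05 was 0. That number was 2 without Tas1r3+/+ female 1 or female 2, 6 without the Tas1r3-/- female and 7 without Tas1r3+/+ male 2. Over all genes, higher ones at that level were 575 of 18984 without the Tas1r3-/- female and 439 of 18893 without Tas1r3+/+ male 2. With 2 times female 2 minus female 1 as a further library, the number in the list was 0, and 0 genes had groups that did not overlap. With all 8 WD columns as labelled, it was 3, and 1 gene had groups that did not overlap. The stem cell and Wnt target list had 12 of 17 higher, a median of 0.12 and 0 with an unadjusted p under 0.05 in limma's test.

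Several single genes were lower in Tas1r3-/- mice with groups that did not overlap. Aadac, an esterase of the endoplasmic reticulum (chromosome 3, 60025717 to 60040160), had 3.69, 5.87, 2.93 and 4.11 in Tas1r3+/+ and 1.31, 0.556 and 0.877 in Tas1r3-/- mice. All 3 Tas1r3-/- libraries lay below all 4 Tas1r3+/+ libraries, at 9 reads or more in each. The log2 fold change was -1.72 (SE 0.35, unadjusted p = 0.000294, adjusted p = 0.932), and on the ND it was -1.23 (unadjusted p = 0.0083). The exact permutation test on the 7 WD libraries gave a two-sided p of 0.0286, the smallest that its 35 splits allow. Groups apart were a condition for naming Aadac, so this p was bound to lie near that floor and adds no support.

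Ocm, which encodes the calcium-binding protein oncomodulin, had 43.9, 40.5, 44.7 and 51.8 in Tas1r3+/+ and 18.0, 17.9 and 31.8 in Tas1r3-/- mice. The groups did not overlap and the Tas1r3-/- female was the highest of its group (log2 fold change -1.03, SE 0.27, unadjusted p = 0.0021). On the ND the log2 fold change of Ocm was -1.45 (unadjusted p = 0.000405). C1qtnf12, which encodes a secreted relative of adiponectin and lies 0.103 Mb from Tas1r3, had 13.7, 16.3, 15.97 and 31.1 in Tas1r3+/+ against 7.16, 4.85 and 8.73 in Tas1r3-/- mice. Its log2 fold change was -1.38 on the WD (unadjusted p = 0.000816) and -1.53 on the ND (unadjusted p = 0.000961). Tas1r3+/+ female 2 was by far the highest library for C1qtnf12, while the other 3 of its group lay at 13.7 to 16.3.

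Mtor, the kinase of the nutrient-sensing complexes mTORC1 and mTORC2, had 6.14, 5.26, 5.24 and 4.69 in Tas1r3+/+ and 2.46, 2.80 and 3.48 in Tas1r3-/- mice. The groups did not overlap, and the spread within each was small (5.33 ± 0.60, SD, n = 4, and 2.91 ± 0.52, SD, n = 3). The log2 fold change was -0.78 (SE 0.18, unadjusted p = 0.000832, adjusted p = 1), and on the ND it was -0.59 (unadjusted p = 0.0124). Mtor was the only one of 22 tested mTORC1 components and regulators with an unadjusted p under 0.05, and the list had 10 higher, 12 lower and a median of -0.05. It lies on chromosome 4, 7.358 Mb from Tas1r3.

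Rdh7, a retinol dehydrogenase, had 8.56, 11.7, 9.66 and 16.5 against 2.25, 2.73 and 7.42 (log2 fold change -1.51, unadjusted p = 0.0089), and on the ND its log2 fold change was -1.94. The retinoid list to which it belongs had 9 of 10 genes lower with a median of -0.41, and Rdh7 was the only one with an unadjusted p under 0.05. Defb37, a beta-defensin, went against the alpha-defensins, with 7.32, 6.47, 11.02 and 11.8 in Tas1r3+/+ and 3.38, 2.32 and 3.64 in Tas1r3-/- mice. No library of one group reached the other (log2 fold change -1.40, unadjusted p = 0.0044), while on the ND its log2 fold change was -0.24 (unadjusted p = 0.605). Arl14, a small GTPase, had 3.99, 3.99, 2.90 and 6.32 against 1.08, 2.18 and 2.28, a log2 fold change of -1.03 (unadjusted p = 0.00444).

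Among named genes at an unadjusted p under 0.01, at least 2-fold and with groups apart, 9 were lower and 5 higher in Tas1r3-/- mice, and 13 more were gene models or annotated pseudogenes, which are counted only, apart from Pla2g2a. Of the 31 genes before overlap was considered, 3 passed the filter on low values only through the WD-fed Tas1r3-/- libraries in which they were higher and 1 only through the Tas1r3+/+ libraries in which it was higher, so that these 4 had to differ. One of them was Rsph1. Rsph1, a radial spoke protein of motile cilia, reached a deposited RPKM of 1 in both WD-fed Tas1r3-/- males and in no other library, and its difference is given as a description. It was at 0.451, 0.688, 0.402 and 0.230 against 2.21, 1.67 and 1.01, which rest on as few as 2.6 reads per library, and the female columns held deposited RPKM of 0.217 and 1.34. With female 1 alone for the Tas1r3-/- female, Rsph1 no longer reached an unadjusted p under 0.05.

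**Figure D3:**
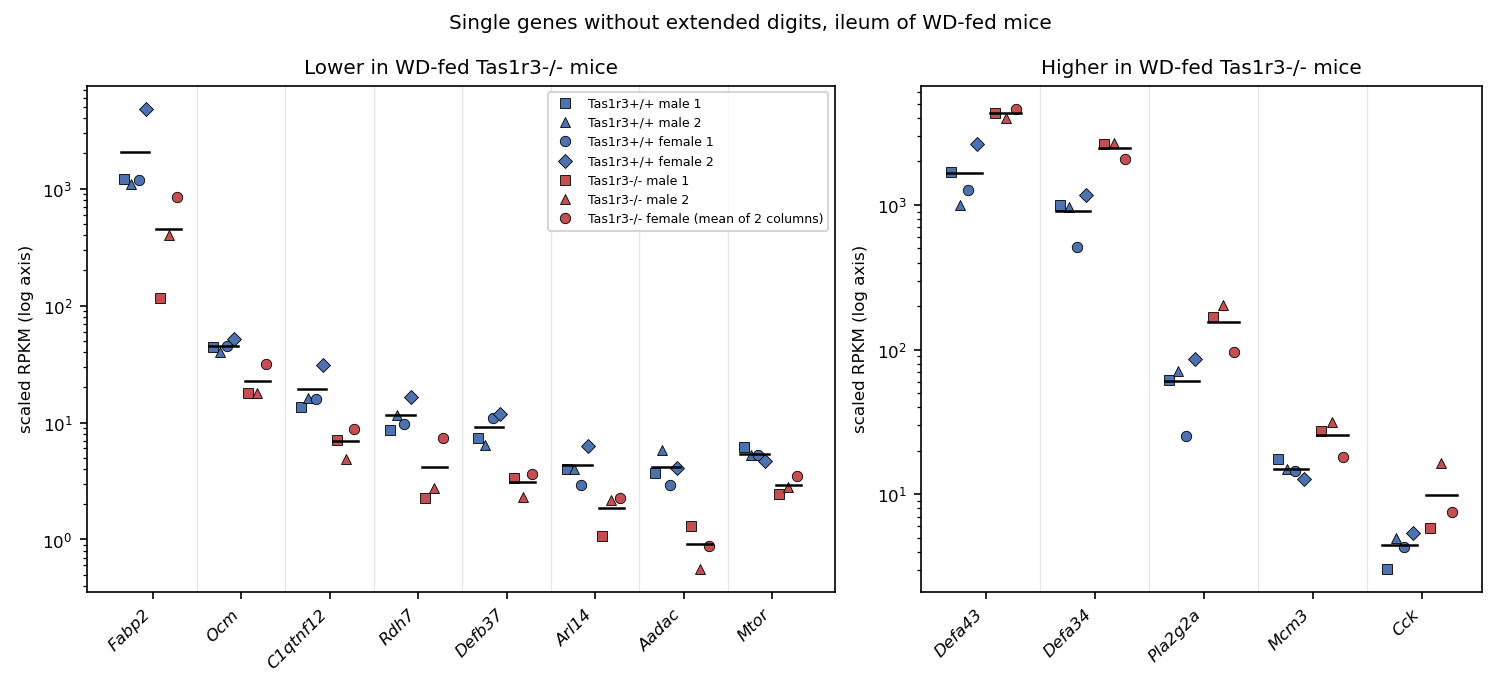
Scaled RPKM (log axis) of genes without extended digits that were lower (left) or higher (right) in WD-fed Tas1r3-/- mice, in each of the 7 WD libraries, with bars at the group means. No Tas1r3-/- library (red) overlaps a Tas1r3+/+ library (blue) of the same gene, and the ratio between groups is widest for Fabp2 and Aadac.

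Genes of villus enterocytes and of nutrient uptake were mostly lower in the mean of Tas1r3-/- mice, but the Tas1r3-/- libraries disagreed with each other. Of 13 ileal enterocyte genes, 12 were lower, with a median log2 fold change of -0.50. Taken against the Tas1r3+/+ mean, the median gene of that list was at -2.02 in Tas1r3-/- male 1, -0.35 in male 2 and 0.55 in the female, and Tas1r3+/+ libraries ran from -0.56 to 0.99. The amino acid and peptide uptake list had 16 of 17 genes lower (median -0.48), with -2.12, -0.52 and 1.08 in the same 3 libraries. In the triglyceride resynthesis and chylomicron list, where 17 of 19 were lower (median -0.55), the libraries were at -1.88, -0.49 and 0.80. The plot of gene lists by library shows this spread beside the alpha-defensins, for which the 3 libraries were at 1.38, 1.36 and 1.28.

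These medians changed sign when 1 library was left out. Without Tas1r3-/- male 1 the median log2 fold change was 0.21 for ileal enterocytes, 0.29 for amino acid and peptide uptake, 0.07 for the triglyceride list, 0.14 for sugar uptake and fructose metabolism and 0.14 for ileal bile acid transport, the last of which had all 10 genes lower with all libraries. Without the Tas1r3-/- female they were -1.13, -1.31, -1.25, -0.95 and -0.96, and the number of genes with an unadjusted p under 0.05 grew from 1 to 13 of 19 in the triglyceride list and from 0 to 12 of 17 in the amino acid list. Over all genes tested, the lower ones at that level also grew, from 165 of 18998 to 1296 of 18984. Without Tas1r3+/+ female 2 the bile acid median was 0.07 and the other medians stayed below 0. Smooth muscle markers varied with these libraries. Their summed level was 2089 to 8622 in Tas1r3+/+ mice and 10101, 5217 and 2800 in Tas1r3-/- male 1, male 2 and female, all 15 were higher in Tas1r3-/- mice (median 0.24), none with an unadjusted p under 0.05 in limma's test, and their part in the enterocyte values was not tested.

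**Figure D4:**
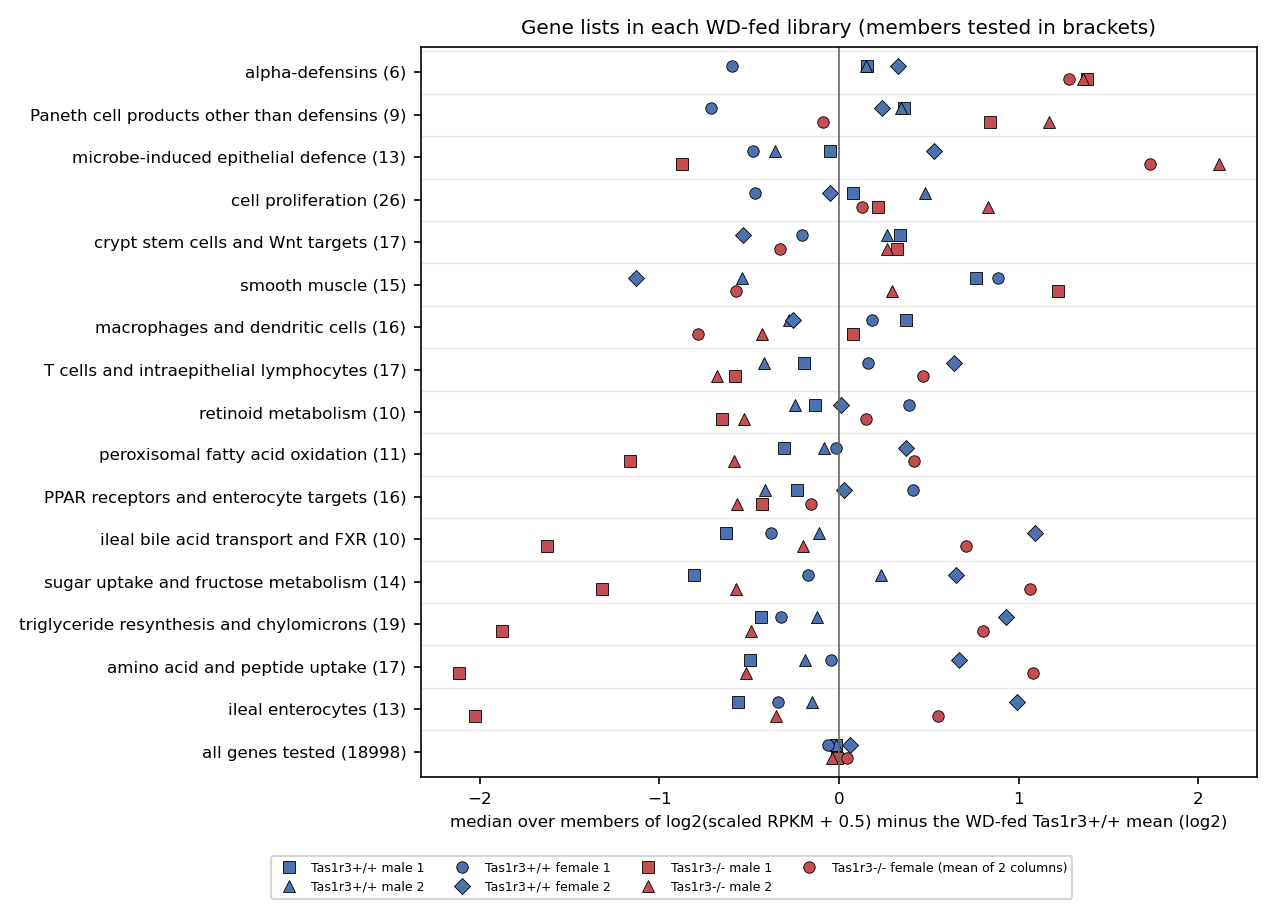
For each gene list (members tested in brackets), the median over its genes of log2(scaled RPKM + 0.5) minus the mean of WD-fed Tas1r3+/+ mice, 1 symbol per WD library, blue for Tas1r3+/+ and red for Tas1r3-/-. The alpha-defensin symbols of the 3 Tas1r3-/- libraries lie together at 1.28 to 1.38, whereas in the enterocyte list they run from -2.02 to 0.55.

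Within these lists, 2 genes had groups that did not overlap. With 2 times female 2 minus female 1 as a further library, 1 gene of the ileal enterocyte list had such groups. The triglyceride list, where Apoa4 was the only such gene, still had 1, which leaves Fabp2 as the gene that overlapped there. Fabp2, the intestinal fatty acid-binding protein (chromosome 3, 122895072 to 122899506), had 1213, 1100, 1183 and 4798 in Tas1r3+/+ and 116, 398 and 848 in Tas1r3-/- mice. The mean of both Tas1r3-/- female columns, high for other enterocyte genes, was here below every Tas1r3+/+ library. The log2 fold change was -2.28 (SE 0.70, unadjusted p = 0.00664, adjusted p = 1), and on the ND it was -1.20 (unadjusted p = 0.158). With 1 library left out, the log2 fold change of Fabp2 was -1.51 without Tas1r3-/- male 1 and -1.77 without Tas1r3+/+ female 2. Apoa4, an apolipoprotein of chylomicrons, had 162, 239, 167 and 575 against 26.1, 44.4 and 100, a log2 fold change of -2.33 with an SE of 1.07 (unadjusted p just under 0.05, and up to 0.15 with 1 library left out). On the ND Apoa4 ranged from 18.4 to 444 in Tas1r3+/+ mice alone. By contrast Alpi, the brush-border alkaline phosphatase, was 66.3, 72.8, 77.0 and 165 against 11.7, 30.9 and 130, so that the Tas1r3-/- female lay within the Tas1r3+/+ range.

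Peroxisomal fatty acid oxidation had 9 of 11 genes lower (median -0.49), 3 of them with an unadjusted p under 0.05 (0.869% of genes tested). Hsd17b4, the D-bifunctional enzyme of the pathway, had 22.5, 29.3, 28.9 and 26.4 in Tas1r3+/+ and 15.5, 16.1 and 16.2 in Tas1r3-/- mice. Its groups did not overlap and the Tas1r3-/- libraries were nearly equal (log2 fold change -0.72, SE 0.24, unadjusted p = 0.0103). With 2 times female 2 minus female 1 as a further library, 0 genes of the list had groups that did not overlap. Cat, the catalase that removes the hydrogen peroxide formed, had 29.5, 41.7, 37.8 and 47.3 against 15.2, 17.4 and 42.9, and Ehhadh, the L-bifunctional enzyme, had 10.8, 17.02, 13.1 and 19.1 against 5.00, 8.78 and 13.8. In both, the 2 males were below all Tas1r3+/+ libraries and the female was not. The median of the list was -0.07 without Tas1r3-/- male 1, with 7 of 11 lower, -0.21 without Tas1r3+/+ female 2 and -0.74 without the Tas1r3-/- female. Without Tas1r3-/- male 1, Tas1r3-/- male 2, Tas1r3+/+ female 2 or Tas1r3+/+ male 2 the number with an unadjusted p under 0.05 was 1, it was 2 without Tas1r3+/+ female 1, and without the Tas1r3-/- female it was 7. Over all genes, lower ones at that level were 1296 of 18984 without the Tas1r3-/- female. The mitochondrial fatty acid oxidation list had 15 of 17 lower (median -0.30), with 0 at an unadjusted p under 0.05 in limma's test.

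PPAR receptors and their enterocyte targets had 12 of 16 lower (median -0.50), 2 of them (0.869% of genes tested) and 1 of the higher genes (1.46%) with an unadjusted p under 0.05. Acot1, a thioesterase, was lower at 5.06, 5.97, 9.85 and 5.35 against 4.36, 1.67 and 2.79, without overlap (log2 fold change -1.07, unadjusted p = 0.0396). That p was up to 0.163 when the Tas1r3-/- female, Tas1r3-/- male 2, Tas1r3+/+ female 1 or Tas1r3+/+ male 2 was left out. The higher gene was Ppara, which is kept in part and is given below.

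Macrophage and dendritic cell genes were lower in 15 of 16 cases (median -0.36), 3 with an unadjusted p under 0.05 (0.869% of genes tested). Without the Tas1r3-/- female 11 of 16 were lower with a median of -0.19, and without Tas1r3-/- male 1 the median was -0.54. Cd68, a lysosomal protein of macrophages, had 9.65, 6.77, 8.95 and 5.64 in Tas1r3+/+ and 4.33, 4.89 and 4.24 in Tas1r3-/- mice, without overlap. Its log2 fold change was -0.70 (SE 0.22, unadjusted p = 0.00732), at or below 0.0254 with any 1 library left out, and on the ND it was 0.12 (unadjusted p = 0.636). C1qb, a subunit of complement C1q made by macrophages, had 72.4, 42.4, 69.6 and 53.3 against 51.5, 36.1 and 24.7, and Adgre1, which encodes the macrophage antigen F4/80, had 3.01, 1.73, 2.49 and 1.87 against 2.42, 0.887 and 0.474. Tas1r3-/- male 1 overlapped the Tas1r3+/+ libraries in these 2 genes. The number at an unadjusted p under 0.05 was 5 without Tas1r3-/- male 1 or Tas1r3+/+ male 2, 2 without the Tas1r3-/- female and 1 without Tas1r3-/- male 2, Tas1r3+/+ female 1 or Tas1r3+/+ male 1. Summed levels overlapped, at 176 to 312 and 147 to 230. T cell and intraepithelial lymphocyte genes were lower in 15 of 17 cases (median -0.33), with 0 at an unadjusted p under 0.05 in limma's test. Il1rn, the receptor antagonist of interleukin-1, was lower at 5.40, 4.03, 4.24 and 4.08 against 2.31, 3.57 and 1.61 (log2 fold change -0.77, unadjusted p = 0.017), and on the ND its log2 fold change was -0.86. Without the Tas1r3-/- female the p of Il1rn was 0.0922.

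Epithelial genes that respond to microbes were spread widely among the Tas1r3-/- libraries. Of 13 tested, 10 were higher (median 1.05) and 0 had an unadjusted p under 0.05 in limma's test. The median gene was at -0.87 in Tas1r3-/- male 1, 2.11 in male 2 and 1.73 in the female. Saa2, a serum amyloid A, had 5.94, 2.22, 3.11 and 11.1 in Tas1r3+/+ and 0.890, 32.8 and 98.1 in Tas1r3-/- mice, so that male 1 was below and the others above all Tas1r3+/+ libraries. Without Tas1r3-/- male 1 the unadjusted p of Saa2 was 0.00227. Mptx2, a mucosal pentraxin, was the exception without overlap, at 210, 186, 68.4 and 70.5 against 572, 870 and 499 (log2 fold change 2.42, SE 1.13, unadjusted p = 0.0523). Its transcript Mptx2-201 is 1 of the 9 kept transcripts that break the relation between the Tas1r3-/- female columns. The 4 Reg family lectins tested were all higher (median 0.67), with -0.61, 1.35 and 1.39 in the 3 Tas1r3-/- libraries.

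Hormone genes of enteroendocrine cells lay in both directions. The list had 13 of 19 lower (median -0.18), 2 lower (0.869% of genes tested) and 1 higher (1.46%) with an unadjusted p under 0.05. Gcg, the precursor of glucagon-like peptides 1 and 2, had 43.6, 62.1, 31.5 and 97.9 in Tas1r3+/+ and 23.1, 20.2 and 25.6 in Tas1r3-/- mice, without overlap. Of its RPKM, 98.0% was kept. The log2 fold change was -1.22 (SE 0.41, unadjusted p = 0.0108), on the ND it was 0.31, and the difference between the diets had an unadjusted p of 0.0283. Cck, cholecystokinin, was higher at 3.02, 4.95, 4.33 and 5.37 against 5.88, 16.4 and 7.56, also without overlap (log2 fold change 0.98, unadjusted p = 0.0255, and 0.163 at most when Tas1r3-/- male 2 or Tas1r3+/+ male 1 was left out). Ghrl, ghrelin, was at 1.44, 1.22, 1.09 and 2.11 against 0.314, 0.0163 and 0.823, with less than 1 read in Tas1r3-/- male 2.

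The genes kept in part gave the smallest p-values. They made up 25 of the 18998 genes tested and 5 of the 31 at an unadjusted p under 0.01 and 2-fold, that is, 20% of the 25 against 0.163% of all. Their values below come from the transcripts without extended digits. Nfkb1, the NF-kB subunit p105/p50 (ENSMUSG00000028163.17, chromosome 3, 135584655 to 135691547), kept 65.3% of its RPKM. It had 20.2, 20.9, 20.0 and 25.6 in Tas1r3+/+ and 7.73, 5.76 and 6.95 in Tas1r3-/- mice, lower in 3 of 3 libraries. Nfkb1 thus fell by 1.60 on the log2 scale (SE 0.19, adjusted p = 0.0238 by limma). The adjusted p was 0.0677 to 0.282 when any 1 of the 7 WD libraries was left out, 0.0528 without scaling, 0.0511 without the mean-variance trend and 0.497 with the 7 WD libraries alone. Of the 14 NF-kB subunits and inhibitors tested, 10 were lower with a median of -0.06, and Nfkbie, also kept in part, was the other one with an unadjusted p under 0.05.

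Muc3, a membrane mucin, had 11.9, 6.57, 6.80 and 11.6 against 102, 166 and 177, but only 13.7% of its RPKM was kept (log2 fold change 3.95, SE 0.53, adjusted p = 0.0563 by limma). With all transcripts kept, the log2 fold change of Muc3 was 1.40 (unadjusted p = 0.0159), since the left-out transcript had a deposited RPKM of 132 to 377 in Tas1r3+/+ and 403 to 671 in Tas1r3-/- mice. Ppara, the fatty acid-sensing nuclear receptor, kept 65.6% and had 1.64, 0.843, 1.12 and 1.77 against 4.48, 4.02 and 4.80 (log2 fold change 1.45, unadjusted p = 7e-05). Tjp1, the tight junction scaffold ZO-1, kept 66.6% and had 4.62, 7.99, 5.13 and 7.20 against 14.5, 19.3 and 11.6. In Tjp1 the log2 fold change was 1.22 on the WD and -0.34 on the ND, and the difference had an unadjusted p of 0.00086. For Il18, 6.62% was kept, and the levels of 1.12 to 2.28 against 0.0639 to 0.221 rest on as little as 0.4 reads. With all transcripts kept, the log2 fold change of Il18 was -2.98 in place of -1.66. When the genes with any extended digits were left out whole, no gene passed an adjusted p under 0.05 in limma's test, 433 had an unadjusted p under 0.05 and 26 an unadjusted p under 0.01 with 2-fold.

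In the goblet cell list 7 of 14 genes were higher and 7 lower (median 0.02), and the 3 with an unadjusted p under 0.05 were Muc3, Muc2 and Muc13, all kept in part. Muc2, the secreted mucin of goblet cells, kept 29.4% and had 157, 13.9, 102 and 236 against 239, 293 and 275. Tas1r3+/+ male 2 was far below every other library for the kept transcripts of Muc2, while the median goblet cell gene was at 0.09 in it. The left-out transcript Muc2-207 was not low there. Its deposited RPKM was 222 in Tas1r3+/+ male 2, against 128, 180 and 274 in male 1, female 1 and female 2. The tight junction list had 12 of 15 lower (median -0.21) and Tjp1 as the 1 gene with an unadjusted p under 0.05.

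Near Tas1r3 itself (chromosome 4, 155859268 to 155863362), 86 tested genes lie within 5 Mb, of which 47 were higher and 39 lower (median 0.02). An unadjusted p under 0.05 was reached by 6 of them (6.98% against 2.33% of genes tested), 4 higher and 2 lower, and by 9.52% of 63 genes within 2 Mb and 6.88% of 160 within 10 Mb. Besides C1qtnf12, Megf6 was higher at 0.974, 0.473, 0.920 and 0.589 against 2.84, 1.09 and 1.42. Ccnl2, a cyclin that acts in splicing, was higher at 51.2, 50.4, 52.0 and 56.3 against 62.1, 61.6 and 86.0. Neither gene overlapped between the groups, with log2 fold changes of 0.83 and 0.39. Ints11, a subunit of the Integrator complex 0.018 Mb from Tas1r3, overlapped at 10.1 to 15.5 and 15.2 to 20.3. With 1 library left out, limma's unadjusted p was up to 0.105 for Megf6, 0.179 for Ccnl2 and 0.147 for Ints11. None of the 86 had an adjusted p under 0.05 by limma.

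On the ND, 851 genes (4.48%) had an unadjusted p under 0.05 between genotypes. There the Tas1r3-/- libraries were male and the Tas1r3+/+ libraries of both sexes, with no term for sex. Differences on the ND and between the diets can therefore include differences of sex. The test of the difference between the diets reached an adjusted p under 0.05 in 0 genes (0%) and an unadjusted p under 0.05 in 251 (1.32%). Genes that were lower in Tas1r3-/- mice on both diets with an unadjusted p under 0.05 include Aadac, C1qtnf12, Ocm, Rdh7, Mtor and Il1rn. For Cd68, Gcg, Nfkb1, Tjp1 and Il18 the difference between diets had an unadjusted p under 0.05 and an adjusted p of 1.

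The sexes were not compared in Tas1r3-/- mice, whose female columns were merged and entered as 1 library. Both Tas1r3-/- males lay below all 4 Tas1r3+/+ libraries in 1954 genes (10.3% of genes tested). In 220 of these (11.3%) the Tas1r3-/- female lay below as well, and in 744 (38.1%) it lay above all 4. Both males lay above all 4 in 1214 genes (6.39%), of which the female was above in 270 (22.2%) and below all 4 in 241 (19.9%).

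Other lists held no gene at an unadjusted p under 0.05 in limma's test. These were chemokines (22 tested, median -0.12), MHC class II presentation (12, -0.05), interferon-stimulated genes (37, -0.09), B cells and follicles (17, 0.10), cholesterol synthesis (20, -0.03), sterol absorption and efflux (11, -0.21), claudins (9, -0.15), tuft cells (13, 0.16) and the circadian clock (19, 0.08). The 4 taste receptor and taste signalling genes tested were higher by a median of 0.20. Cytochromes P450 had 10 of 12 lower with a median of -0.58. Cytosolic ribosomal protein genes were higher in 77 of 86 cases with a median of 0.15, which was 0.03 without scaling. Gpx2, a glutathione peroxidase, was the 1 gene of 14 aryl hydrocarbon receptor and NRF2 targets with an unadjusted p under 0.05, at 282, 255, 256 and 861 against 504, 1283 and 1032. Tas1r3+/+ female 2 lay within the Tas1r3-/- range of Gpx2, and without it the log2 fold change was 1.72, while without Tas1r3-/- male 2 it was 1.02 (unadjusted p = 0.146).

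Single members of further lists had an unadjusted p under 0.05. Glrx5, which takes part in iron-sulfur cluster assembly, had 14.5, 14.3, 17.2 and 22.0 in Tas1r3+/+ and 21.3, 24.6 and 23.6 in Tas1r3-/- mice (log2 fold change 0.45), with 8 of 11 iron genes higher. Fkbp11, a folding enzyme of secretory cells in the plasma cell list, had 4.35, 2.88, 2.87 and 7.95 against 6.87, 10.4 and 9.72 (log2 fold change 1.01), with 7 of 12 genes higher. Atf4, the transcription factor of the integrated stress response, had 91.6, 89.3, 105 and 122 against 118, 157 and 154 (log2 fold change 0.48), with 14 of 22 unfolded protein response genes higher. In all 3 genes Tas1r3+/+ female 2 lay within the range of the Tas1r3-/- libraries. Each had an unadjusted limma p over 0.05 in 4 of the 7 fits with 1 library left out. The highest was 0.0763 for Glrx5, 0.0725 for Fkbp11 and 0.109 for Atf4. The immediate early gene Fosb was lower without overlap, at 1.47, 2.57, 1.69 and 2.94 against 0.990, 0.867 and 1.22 (log2 fold change -0.78, unadjusted p = 0.0142), with 10 of 16 immediate early and heat shock genes lower. Of 9 replication-dependent histone genes 7 were higher, and Hist1h2ap had 4.20, 3.26, 9.28 and 46.3 against 53.1, 12.04 and 38.4. These near-identical genes share reads, and the groups of Hist1h2ap overlapped through Tas1r3+/+ female 2.

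Markers of tissue around the mucosa differed between libraries of 1 genotype by more than between the groups. The summed level of adipocyte genes was 77.2 to 192 in Tas1r3+/+ mice and 126, 68.3 and 414 in Tas1r3-/- male 1, male 2 and female. Enteric neuron and glia genes summed to 41.3 to 292 against 50.5 to 235, fibroblast and vessel genes to 197 to 632 against 179 to 624, and exocrine pancreas genes to 39.5 to 104 against 56.5 to 182. Colon markers summed to 106 to 294 against 52.4 to 325, with Tas1r3-/- male 1 lowest and the female highest, as for ileal enterocyte genes within that group. None of these lists had a gene with an unadjusted p under 0.05 in limma's test, and their part in the values above was not tested.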

How the data were processed

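RNA from the terminal ileum of 16 samples, 4 per group, was sequenced on the Ion Proton platform. The authors mapped the reads with STAR in Partek Flow to GRCm38 (mm10 in the submitters' processing notes) and quantified Ensembl transcripts. The deposited values are RPKM per transcript as made by the authors, in a table of all samples and in per-sample files that differ from it by at most 4.99e-08. The file name speaks of raw counts, but the values are not whole numbers. In the libraries used, 86.6% to 87.9% of values between 0.5 and 200 reads fell within 0.02 of whole reads once transcript length and a step per library were divided out. No count model was used.

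Transcripts with more than 6 significant digits in a WD column were left out, where the columns read were those of the Tas1r3+/+ mice, both Tas1r3-/- males and Tas1r3-/- female 1. Both Tas1r3-/- female columns on the WD were merged into a mean. Those on the ND were not used, because they equalled weighted means of the 2 male columns (75% and 25%, and 62.5% and 37.5%, of male 1 and male 2) within a relative tolerance of 1e-05 for 99.97% of 59195 transcripts. This left 13 libraries. Transcripts were summed to genes. A gene was tested if it reached an RPKM of 1 in 2 libraries or more. Scaling factors were trimmed means of log ratios between libraries (30% of ratios and 5% of levels trimmed). After 0.5 had been added, log2 values of all groups entered 1 linear model in limma 3.58.1 (R 4.3.3), with a trend of variance on level and p-values adjusted after Benjamini and Hochberg. Single genes also had an exact two-sided permutation test over the 35 splits of the 7 WD libraries. Further tables were made in Python 3.11.15 (pandas 2.3.3, numpy 2.4.6, scipy 1.17.1). The fit was first tested on simulated data with known changes. Coordinates are from GENCODE on GRCm38, for 99.6% of genes tested.

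Named genes are those at an adjusted p under 0.05, up to 15 in each direction with the largest changes among genes at an unadjusted p under 0.01 with 2-fold and groups apart, up to 5 members per list with the smallest p, the most abundant members of cell type lists, and up to 5 genes within 5 Mb of Tas1r3 with the smallest p. The members and the gene lists were chosen with earlier results of these data known. Alternatives were other pseudocounts, filters and scalings, the WD libraries or males alone, sex or replicate number as a term, other uses of the female columns and of the extended digits, no trend, other windows and each WD library left out.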

Additional observations from a re-analysis of the deposited data

Results flagged for a closer look

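In 60 genes described or named, the 4 Tas1r3+/+ libraries on the WD were examined for 1 value far from the others by Dixon's test at the 95% level, which chance alone passes in about 1 of 20 groups. It was passed in 8 genes. In 7 of them the far value was the highest one, in Tas1r3+/+ female 2: scaled RPKM was 25.6 for Nfkb1, 4798 for Fabp2, 31.1 for C1qtnf12, 165 for Alpi, 8972 for Fabp6, 861 for Gpx2 and 46.3 for Hist1h2ap. In Il1rn it was Tas1r3+/+ male 1, at 5.40. The gap to the next library divided by the range was 0.969 for Fabp2, 0.955 for Gpx2, 0.908 for Fabp6 and 0.837 to 0.892 for the others. Tas1r3+/+ female 2 had the smallest scaling factor, 0.681, and the highest summed level of ileal enterocyte genes on the WD, 20041. Without this library, the log2 fold change of Fabp2 was -1.77 and that of Gpx2 was 1.72. The 3 Tas1r3-/- libraries are too few for this test. The test of a difference between the diets passed an adjusted p under 0.05 in 0 genes by limma, with 251 at an unadjusted p under 0.05.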

How the results depend on the processing

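Only Nfkb1 passed an adjusted p under 0.05, and this count was 2 with 2 times female 2 minus female 1 as a further library, with all 8 WD columns as labelled, with a mean RPKM of at least 5, with a pseudocount of 1 and with upper quartile scaling, 5 with all transcripts kept, and 0 with the genes with extended digits left out whole, without the trend, in males alone and with each 1 of the 7 WD libraries left out. Without scaling and with the 7 WD libraries alone the count was 1 but the gene was not Nfkb1 (adjusted p = 0.0528 and 0.497 by limma). At an adjusted p under 0.01 and 2-fold, 2 genes passed with the further library, with all 8 columns and with all transcripts kept, and 0 in the other settings, leave-one-out fits included. The 442 genes at an unadjusted p under 0.05 became 1215 in males alone (35.1% higher), 242 with a mean RPKM of at least 5, 256 with the 7 WD libraries alone and 261 to 1871 with 1 library left out, the first without Tas1r3-/- male 2 and the last without the Tas1r3-/- female (575 higher, 1296 lower). The 31 at an unadjusted p under 0.01 and 2-fold became 56 with all transcripts kept, 147 in males alone, 12 with a mean RPKM of at least 5 and 31 to 317 with 1 library left out. The 490 genes without overlap became 248 with the further library, 6096 in males alone, 254 with a mean RPKM of at least 5 and 799 to 3164 with 1 library left out, since fewer libraries overlap less. The 251 genes whose difference between the diets had an unadjusted p under 0.05 became 442 with all 8 columns, 113 with a mean RPKM of at least 5, 385 without a filter and 184 to 670 with 1 library left out, the highest without Tas1r3-/- male 1. For the other changes the cause was not tested. With the replicate number as a block, 0 genes passed an adjusted p under 0.05 (Nfkb1 0.198), 588 an unadjusted p under 0.05 and 61 an unadjusted p under 0.01 with 2-fold. Deviations from the group means of same-numbered libraries correlated at 0.571 (male 1) and 0.416 (male 2). Those of the Tas1r3-/- female, the mean of both columns, correlated at -0.147 with Tas1r3+/+ female 1 and 0.635 with Tas1r3+/+ female 2. The labels do not say that the numbers pair samples, and the main fit did not pair them. The log2 fold change of Vil1, -0.56, was 0.14 without Tas1r3-/- male 1 and -1.30 without the Tas1r3-/- female, and no other single gene recomputed changed direction under these alternatives. Reads per library limit genes near an RPKM of 1, where 1 read on 1 kb is worth 0.0692 to 0.0995.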
